A study of Mus musculus with 4 samples.

Results

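The library labelled as an AK046375 knockdown was compared with the control library under oxygen-glucose deprivation (OGD), across 12156 of the 47069 genes in the files. Genes entered when their mean reached 1 FPKM (fragments scaled to effective transcript length and library size) over the libraries compared, which are 2 of the 4 libraries of the series. Both came from HT22, an immortalised mouse hippocampal neuronal line, infected with adenovirus 2 h after seeding. The control library received a control adenovirus and the other an adenovirus labelled as lowering the long noncoding RNA AK046375. Both cultures were then held for 6 h in medium without glucose, with nitrogen in place of oxygen. The series text names a lentivirus and overexpression of the same transcript, so "labelled knockdown" is used throughout. A search by name matched 0 genes to AK046375 and its level was not analysed here. Whether it was lowered or raised was therefore not measured.

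Each side held 1 library, of 27539845 expected counts for the control and 23327743 for the labelled knockdown. No spread between cultures can be given and no p-value was computed. Intervals in square brackets are 95% exact binomial intervals for the FPKM fold between the libraries and cover counting error only. "Higher" and "lower" always refer to the labelled knockdown library over the control library, and a gene was counted at 2-fold or more on the log2 ratio of FPKM + 1. That ratio understates the fold of genes near or below 1 FPKM. In these bulk cultures, fewer cells of a kind and less RNA per cell cannot be told apart.

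OGD is a culture model of ischaemia. Loss of oxygen stabilises the HIF1 alpha protein, whose dimer with ARNT switches on genes for glucose uptake, vessel growth and collagen modification. Loss of glucose starves glycolysis and protein glycosylation, which engages the unfolded protein response in the endoplasmic reticulum and the integrated stress response. Neurons are among the cells most easily injured by this combination.

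The labelled knockdown library held many more genes at a higher FPKM than at a lower one. Of the 12156 genes, 2048 were at least 2-fold higher, a share of 16.8%, and 285 at least 2-fold lower, a share of 2.34%. At 4-fold the counts were 204 and 32. The median gene stood at 0.28 on the log2 scale, 1.21-fold higher, so that figure is the baseline for every gene and list below. The split depended on the scaling: expected counts scaled with TMM factors (trimmed mean of M values, a scaling that centres most genes) gave 1545 higher, 12.7%, and 1070 lower, 8.8%, around a median of -0.01. Of the 2048 genes higher in FPKM, 1342 were also at least 2-fold higher in TMM-scaled counts, and 283 of the 285 lower genes were also lower. Of the 706 higher in FPKM alone, 363 had effective lengths that differed by more than 1.2-fold between the libraries.

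**Figure D1:**
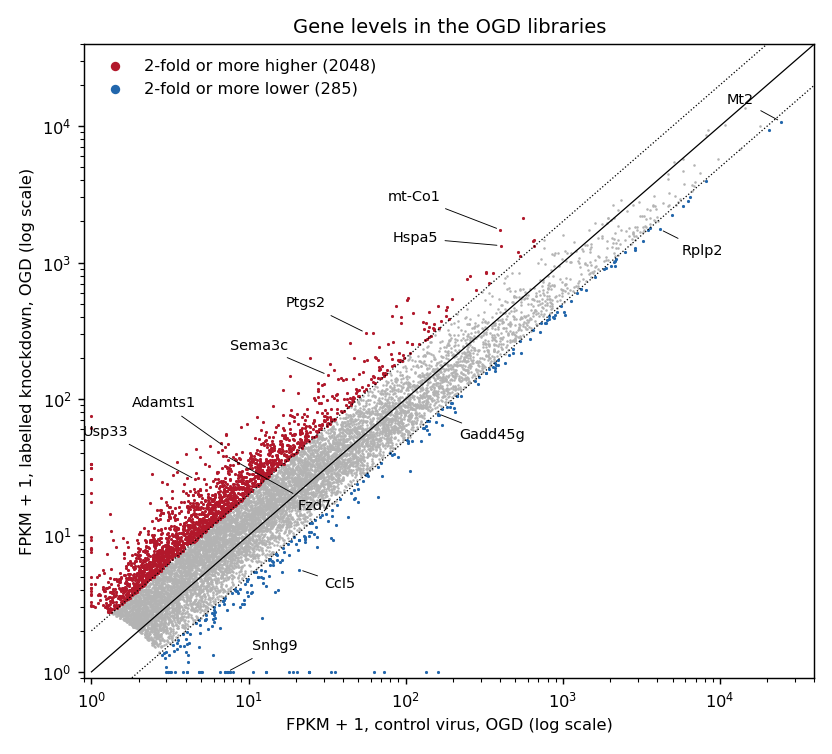
Level of each compared gene in the control library (x axis, FPKM + 1, log scale) and in the labelled knockdown library (y axis, FPKM + 1, log scale) under OGD. Red marks the 2048 genes at least 2-fold higher and blue the 285 at least 2-fold lower; points on an axis are genes listed at 0 in 1 library, and Mt2 and Rplp2 are lower genes at high levels.

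Genes listed at 0 in a single library were nearly all small or predicted transcripts. The labelled knockdown library listed 37 compared genes at 0 and the control library 28, and 36 and 28 of these were small RNAs, predicted genes with placeholder names or pseudogenes. Effective lengths of such genes can be a few bases, where 1 read gives a large FPKM, and no fold is given for them. Without these kinds of gene, 1793 were higher and 113 lower.

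The labelled cell type was checked against marker genes. Of 14 neuronal and progenitor genes, 4 were compared: Vim, at 4665 FPKM in the control and 4087 in the labelled knockdown library, Nes, at 39.2 and 44.3, Pax6, at 6.61 and 11.5, and Tubb3, at 7.17 and 7.84. The neuronal genes Rbfox3, Snap25, Nefl, Nefm, Dcx and Gap43 were listed at 0 in both libraries, and so was the progenitor gene Sox2. Several neuronal markers were thus listed at 0 in both libraries. Map2, Syp and Stmn2, of the same list, were not, yet they did not reach the mean of 1 FPKM. Markers of other cell types summed to 1.55 and 3.74 FPKM for 5 astrocyte genes, 0.91 and 0.86 for 5 oligodendrocyte genes, 2.64 and 1.60 for 5 microglial genes and 0.52 and 0.81 for 4 endothelial genes, control before labelled knockdown. The 5 fibroblast genes summed to 254 and 361 FPKM, most of it Col1a1, with Lum listed at 0 in both. Pdgfra, of the fibroblast list, and Slc1a3, of the astrocyte list, were at least 2-fold higher, and the part of such cells in the results was not tested.

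Receptors and ligands of the Wnt, activin and BMP pathways were among the higher genes. Fzd7 (chr1:59482424-59486955, GRCm38), a Wnt receptor, was at 15.3 FPKM in the control and 10.3 in the labelled knockdown library in normal culture, and at 6.15 and 37.5 under OGD, 6.09-fold higher [5.62 to 6.59]. Inhba, which encodes the activin beta A subunit, was at 2.63 and 1.02 FPKM in normal culture and at 1.02 and 9.31 under OGD, 9.13-fold higher [6.59 to 12.9]. Bmpr1a, a BMP receptor, was at 1.76 and 1.69 in normal culture and at 3.92 and 20.4 under OGD, 5.20-fold higher [4.66 to 5.8]. In all 3 the labelled knockdown library under OGD held the highest of the 4 levels and stood alone above the other libraries.

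TGF-beta and BMP signalling genes had 10 of 22 compared members at least 2-fold higher and 0 lower, with a median of 0.90 on the log2 ratio scale. The receptors Tgfbr1, at 1.5 against 8.39 FPKM, and Acvr1, at 4.9 against 16.98, were among them. So were the shared signal carrier Smad4, at 11.1 against 33.1 FPKM, the BMP antagonist Grem1, at 45.1 against 139, and the transcriptional repressor Skil, at 3.18 against 10.7. With counts, 9 members were higher and 0 lower.

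Notch and Wnt genes had 10 of 21 higher and 0 lower, with a median of 0.90. Beside Fzd7 and Fzd1, at 9.03 against 27.2 FPKM, they held both the Wnt effector Ctnnb1 (beta-catenin), at 92.6 against 361 FPKM, and Apc, which promotes the destruction of that protein, at 0.90 against 5.50. The Notch ligand Jag1 was at 1.28 against 6.28 FPKM and the receptor Notch2 at 9.59 against 29.99.

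Receptor tyrosine kinases outside the EGF receptor family had the highest list median, 1.13, with 8 of 14 compared members higher and 0 lower. With the length trend described below removed, the median was 0.38 and no longer the highest. That of mitochondrially encoded genes was then 1.26. Axl, a receptor for the bridging ligand Gas6, was at 79.1 against 213 FPKM, 2.70-fold higher [2.61 to 2.78]. The collagen receptor Ddr2 was at 16.7 against 45.1 FPKM and the hepatocyte growth factor receptor Met at 1.36 against 4.64. On counts 3 of the 14 were at least 2-fold higher, and the count log2 ratio of Axl was 0.58. The EGF receptor family and its ligands gave 0 of 7 higher and 0 lower, with a median of 0.61, Egfr itself standing at 1.51 against 3.22 FPKM.

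Insulin and PI3K signalling genes had 6 of 24 higher, 0 lower and a median of 0.82, which was 0.08 after removal of the length trend described below. Both insulin receptor substrates compared were among them. Irs2 was at 5.02 FPKM in the control and 1.42 in the labelled knockdown library in normal culture, and at 2.32 and 26.8 under OGD. Irs1 was at 0.54 and 0.30 in normal culture and at 1.29 and 7.28 under OGD, 5.64-fold higher [4.99 to 6.38]. The insulin receptor gene Insr was at 0.73 against 2.94 FPKM under OGD, 4.03-fold higher [3.36 to 4.89], and the regulatory subunit genes Pik3r1 and Pik3r3 were 3.24-fold and 3.96-fold higher. The kinase gene Mtor, looked up after its value was seen, stood at 11.5 against 13.7 FPKM.

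Feedback inhibitors of the MAP kinase pathway gave 7 of 16 higher and 0 lower, with a median of 0.72, and 4 were higher in TMM-scaled counts. The phosphatase gene Dusp4 was at 15.3 against 53.3 FPKM, 3.49-fold higher [3.26 to 3.75], and Dusp6, specific for ERK, at 6.28 against 17.2. Spred1, Spred2 and Spry2, which restrain Ras signalling, were 3.40-fold, 3.12-fold and 2.32-fold higher. The growth factors and cytokines held 6 of 23 higher, among them Il6, at 1.61 against 5.01 FPKM on 43 against 115 counts, and 0 lower. In TMM-scaled counts 3 of the 23 were higher, near the 12.7% of all compared genes that were higher on that scale. The decoy and membrane receptor gene of interleukin 33, Il1rl1, was at 15.02 and 5.16 FPKM in normal culture and at 196 and 539 under OGD, 2.74-fold higher [2.69 to 2.80].

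YAP targets and Hippo pathway genes had 9 of 19 higher, 0 lower and a median of 0.85. In TMM-scaled counts 5 were higher, and the median was 0.12 with the length trend removed. Lats2 and Lats1, the kinases that restrain YAP, were 4.88-fold [4.46 to 5.33] and 3.39-fold [3.00 to 3.83] higher, and Tead1, its DNA-binding partner, was 2.77-fold higher. Among targets, Crim1 was at 9.23 against 36.3 FPKM and Ccn2 at 59.3 against 139.

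Chromatin regulators were the largest group in which most compared members were higher. Of 45, 24 were at least 2-fold higher and 0 lower, with a median of 1.05, and counts gave 19 higher and 0 lower. The acetyltransferase gene Ep300 (chr15:81585351-81652077) was at 4.48 FPKM in the control and 3.5 in the labelled knockdown library in normal culture, and at 3.74 and 25.5 under OGD, 6.80-fold higher [6.19 to 7.47]. The remodeller Atrx, a deposition factor for histone H3.3, was at 0.80 and 0.88 in normal culture and at 1.85 and 13.7 under OGD, 7.40-fold higher [6.26 to 8.77]. Suz12, a core subunit of the H3K27 methyltransferase complex PRC2, was at 2.52, 2.56, 4.68 and 21.5 FPKM in the same order. For these genes the labelled knockdown library under OGD lay well above the other 3 libraries. Kmt2e, Smarca5 and Kdm2a were 4.51-fold, 3.52-fold and 3.33-fold higher, although the count log2 ratio of Kdm2a was 0.67. The transcripts in this list are long, with a median effective length of 4566 bases, and after removal of the length trend described below the list median was 0.27.

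Nuclear transport receptors had 15 of 27 higher, 0 lower and a median of 1.08, and 9 were higher in TMM-scaled counts. Ipo7, an importin for ribosomal proteins and histone H1, was at 2.00 and 1.79 FPKM in normal culture and at 2.03 and 22.7 under OGD. Ranbp2, the large filament protein of the pore, was at 0.17 and 0.33 FPKM in normal culture and at 1.01 and 6.70 under OGD, 6.63-fold higher [5.83 to 7.64]. The importin alpha genes Kpna1 and Kpna4 and the exportin of microRNA precursors, Xpo5, were 4.08-fold, 3.48-fold and 3.40-fold higher. In contrast, the small Ran-binding protein gene Ranbp1, named after its value was seen, was at 859 against 535 FPKM. Nuclear pore genes gave 5 of 24 higher, led by Nup153 at 3.96-fold [3.59 to 4.38]. That share was 20.8%, against 16.8% of all compared genes.

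Splicing factors of the SR and hnRNP families had 12 of 33 higher, 0 lower and a median of 0.77, and 0.45 after removal of the length trend. In TMM-scaled counts 7 were higher. Srsf1 was at 37.9 against 143 FPKM, 3.76-fold higher [3.56 to 3.97], and Hnrnph1 at 139 against 436, 3.14-fold higher [3.04 to 3.24]. All 3 polypyrimidine tract binding protein genes were higher, with Ptbp2, the paralogue used by neuronal precursors, at 3.76 against 19.1 FPKM, Ptbp3 at 4.52 against 18.3 and Ptbp1 at 183 against 473. The count log2 ratio of Ptbp1 was 0.73. The Sm and LSm proteins that form the rings of small nuclear particles went the other way, with 0 of 21 higher, 1 lower and a median of -0.47, and 5 were lower in TMM-scaled counts. Lsm7 was at 225 against 104 FPKM, 2.15-fold lower [1.97 to 2.36], and Snrpd2 at 304 against 154.

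Of 31 RNA polymerase II subunits and elongation factors, 5 were higher and 0 lower, and in TMM-scaled counts 4 were higher and 5 lower. The share higher in FPKM, 16.1%, lay near the 16.8% of all compared genes. In TMM-scaled counts 12.7% of all compared genes were higher and 8.8% lower. The super elongation complex genes Aff4, Aff1 and Ell2 were 4.85-fold [4.52 to 5.21], 2.55-fold [2.43 to 2.67] and 3.64-fold [2.87 to 4.66] higher. The subunit genes Polr2f, at 920 against 465 FPKM, and Polr2l, named after its value was seen, at 52.4 against 27.9, had the lowest ratios of the list and did not reach 2-fold in FPKM. The termination factor gene Pcf11 was at 1.94 against 10.4 FPKM, 5.37-fold higher [4.64 to 6.26].

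Factors that act on messenger RNA were mixed. Of 28 genes for decay and AU-rich element binding, 5 were higher and 0 lower, around a median of 0.41. That share higher, 17.9%, lay near the 16.8% of all compared genes. Zfp36l1 and Zfp36l2, which recruit deadenylases to AU-rich elements, were 4.59-fold [3.97 to 5.35] and 2.77-fold [2.65 to 2.90] higher. The exosome nuclease gene Dis3 was 2.80-fold higher, while the exosome core subunit Exosc5, named after its value was seen, stood at 55.2 against 29.9 FPKM. Of 16 microRNA pathway genes, 6 were higher and 0 lower, with Ago1 at 1.64 against 5.12 FPKM and Ago2 at 2.02 against 5.67.

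**Figure D2:**
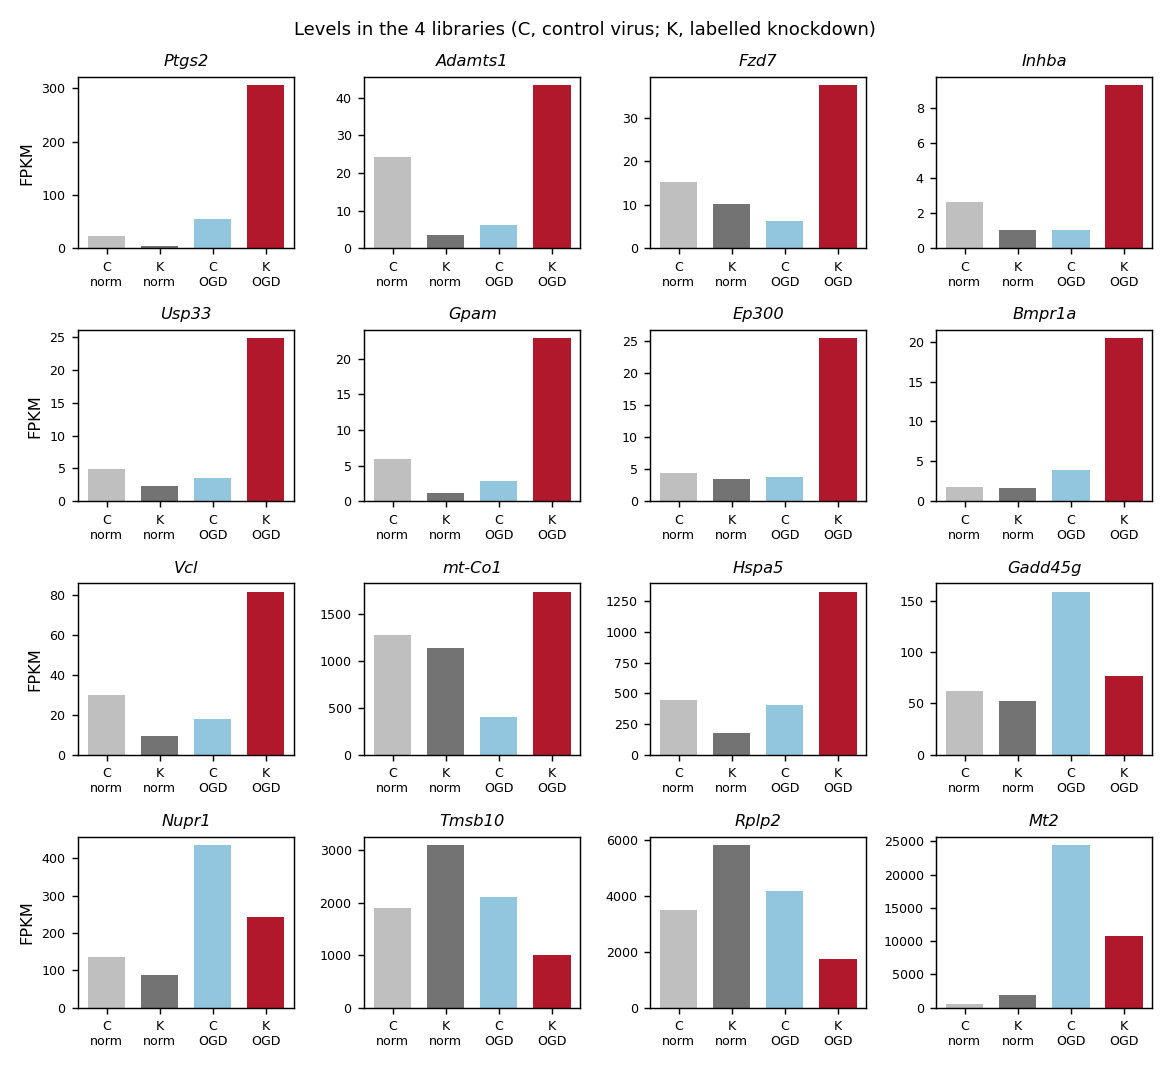
FPKM of 16 named genes in each library, 1 bar per library, on axes that start at 0 and differ between panels. In the first 11 panels, such as Ptgs2, Ep300 and Bmpr1a, the labelled knockdown library under OGD holds the highest level; Gadd45g, Nupr1, Tmsb10, Rplp2 and Mt2 are lower there than in the control library under OGD.

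Factors of oxygen sensing and their targets were examined for the HIF pathway. Hif1a was at 10.2 and 7.81 FPKM in normal culture and at 8.80 and 64.1 under OGD, and Arnt, its partner, was at 17.7, 6.52, 7.10 and 20.8 in the same order, 2.92-fold higher under OGD [2.65 to 3.22]. The genes that limit HIF were nearer to the median gene: Vhl at 0.76 and Hif1an at 0.75 on the log2 ratio scale, and Egln3 at 0.49. Of 27 HIF targets, 10 were at least 2-fold higher and 0 lower in FPKM, and 4 were higher in counts. The share in FPKM was 37.0%, against 16.8% of all compared genes. In TMM-scaled counts 12.7% of all compared genes were higher, and the 4 of 27 lay near that share. Plod2, a collagen lysyl hydroxylase, was 3.47-fold higher [3.29 to 3.67] and Pfkfb3, which makes the activator of glycolytic phosphofructokinase, 3.47-fold higher [3.05 to 3.95]. Bnip3, a mitophagy receptor gene, was at 134 and 96.4 FPKM in normal culture and at 10.6 and 29.1 under OGD, 2.75-fold higher [2.4 to 3.15]. It therefore stood below normal culture in both OGD libraries. Glycolysis genes gave 0 of 17 higher and 0 lower around a median of 0.12, which turned to -0.27 in TMM-scaled counts; Slc16a1, a lactate transporter, led at 8.50 against 16.4 FPKM.

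HIF dimers bind the core letters ACGTG, so the 250 bases before the RefSeq start of each gene were searched for these letters on both strands. A promoter in RefSeq (GRCm38.p6) was matched by symbol for 8516 of the 12156 compared genes. The core was present in 23.9% of the promoters of the higher genes, 20.2% of those of the lower genes and 22.7% of all 8516. It was present in 13 of 20 matched HIF targets, and in 2 of the 5 of these that were at least 2-fold higher. The promoters of Bnip3 and Irs2, shown because both genes were higher and both hold the core within the palindrome CACGTG, are printed from the 250th base before the start to the last base before it, with the core of both strands in capitals.
Bnip3, chr7:138909507-138909756, minus strand: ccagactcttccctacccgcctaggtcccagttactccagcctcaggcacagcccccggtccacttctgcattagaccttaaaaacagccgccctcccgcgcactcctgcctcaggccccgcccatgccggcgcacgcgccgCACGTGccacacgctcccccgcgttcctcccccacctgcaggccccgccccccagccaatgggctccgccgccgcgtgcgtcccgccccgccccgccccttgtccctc
Irs2, chr8:11008930-11009179, minus strand: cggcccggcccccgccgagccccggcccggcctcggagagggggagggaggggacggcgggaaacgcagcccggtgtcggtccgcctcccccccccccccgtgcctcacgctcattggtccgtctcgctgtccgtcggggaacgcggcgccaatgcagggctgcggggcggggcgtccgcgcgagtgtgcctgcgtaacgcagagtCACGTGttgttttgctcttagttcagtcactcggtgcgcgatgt
The shares of higher, lower and all compared genes with the core lay close to each other, so the letters did not separate the higher genes from the rest.

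Genes of endoplasmic reticulum folding and degradation had 13 of 27 higher, 0 lower and a median of 0.97, and 8 were higher in TMM-scaled counts. The chaperone gene Hspa5 (BiP, chr2:34771970-34777547) was at 447 and 173 FPKM in normal culture and at 401 and 1331 under OGD, 3.32-fold higher [3.27 to 3.38]. Edem3, which trims mannose from misfolded proteins, was at 1.40, 0.45, 0.59 and 8.54 FPKM, and Sel1l, an adaptor of the degradation ligase, was 3.27-fold higher [3.01 to 3.55]. The integrated stress response list lay below the median gene, with 2 of 25 higher, 0 lower and a median of 0.08 that was -0.18 in TMM-scaled counts. Its 2 higher members were the arginine transporter gene Slc7a1, at 26.7 against 114 FPKM, and the lipoprotein receptor gene Vldlr, at 10.0 against 35.1. Its transcription factor gene Ddit3 was at 146 and 98.9 FPKM in normal culture and at 491 and 263 under OGD, 1.87-fold lower [1.79 to 1.94]. Nupr1, a stress cofactor gene, was at 135 and 88.1 in normal culture and at 436 and 241 under OGD, 1.80-fold lower [1.73 to 1.88].

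Aminoacyl-tRNA synthetases gave 1 of 20 higher, Iars at 3.03-fold [2.90 to 3.17], and 0 lower, with a median of 0.06. In TMM-scaled counts the median was -0.30 and 0 were higher. Cytosolic heat shock genes gave 6 of 22 higher and 0 lower, against 3 higher and 1 lower in TMM-scaled counts. Hspa1a and Hspa1b, near-identical copies whose reads cannot be cleanly assigned, were at 62.8 against 202 and 160 against 481 FPKM, and the small heat shock protein genes at the other end, Hspb1 and Cryab, named after their values were seen, stood at -0.71 and -0.76 on the log2 ratio scale. NRF2 targets and glutathione genes gave 2 of 24 higher, Abcc1 and Gclc, and 0 lower. In TMM-scaled counts 0 were higher and 4 lower. Gclc, the catalytic subunit for glutathione synthesis, was at 4.39 and 2.86 FPKM in normal culture and at 52.9 and 113 under OGD, 2.14-fold higher [2.07 to 2.22]. The selenoenzyme gene Gpx4, which reduces lipid peroxides, was 1.78-fold lower [1.74 to 1.82].

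Zinc handling genes moved both ways: of 17, 4 were higher and 2 lower, and in TMM-scaled counts 3 were higher and 2 lower. Mt1 and Mt2, whose proteins bind zinc, were at 20427 and 24459 FPKM in the control library under OGD and at 9339 and 10788 in the labelled knockdown library, both lower. The transporter genes Slc39a6, Slc39a10 and Slc39a14, which bring zinc into the cytosol, were 3.78-fold, 7.16-fold and 2.65-fold higher, and Slc30a4, which carries it into vesicles, was 4.75-fold higher [4.31 to 5.23].

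Cholesterol genes had 10 of 26 higher, 0 lower and a median of 0.90, including the endosomal cholesterol exporter Npc1 at 3.63 against 13.3. Insig2, which retains the SREBP complex, was 3.45-fold higher [3.00 to 3.97], with a count log2 ratio of 0.88. Fatty acid genes had 10 of 18 higher, 0 lower and a median of 1.05. Gpam, the first acyltransferase of glycerolipid synthesis, was at 5.98 and 1.11 FPKM in normal culture and at 2.89 and 22.9 under OGD, 7.91-fold higher [6.98 to 8.98], and Acly, which supplies cytosolic acetyl-CoA, was 3.16-fold higher [3.02 to 3.31]. Fasn itself, named after its value was seen, stood at 57.0 against 83.1 FPKM.

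Basement membrane and collagen genes had 12 of 24 higher and 0 lower, with a median of 0.95. In TMM-scaled counts 9 were higher. These transcripts are long, with a median effective length of 4542 bases, and the list median was 0.16 with the length trend removed. Nid1 (chr13:13437551-13512269) was at 17.3 and 12.0 FPKM in normal culture and at 23.8 and 197 under OGD. Its paralogue Nid2 was at 87.7, 50.3, 13.5 and 42.4 FPKM in the same order, 3.14-fold higher under OGD [2.98 to 3.33] but below normal culture, and the type IV collagen gene Col4a5 was 5.48-fold higher [4.9 to 6.14]. Matrix enzymes and inhibitors gave 10 of 27 higher and 0 lower, against 8 higher and 1 lower in TMM-scaled counts. The aggrecanase gene Adamts1 (chr16:85793827-85803113) was at 24.3 and 3.60 FPKM in normal culture and at 6.13 and 43.4 under OGD, 7.07-fold higher [6.48 to 7.74], and the sheddase gene Adam10 was 5.09-fold higher [4.46 to 5.82]. The metalloproteinase inhibitor Timp3 was at 1.30 against 5.72 FPKM, whereas Timp1, named after its value was seen, was at 962 against 532.

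Axon guidance genes had 12 of 28 higher and 0 lower, with a median of 0.87. In TMM-scaled counts 7 were higher, and the median was 0.17 with the length trend removed. The ligands Efnb2, at 5.84 against 37.2 FPKM, Sema3c, at 30.8 against 149, and Slit2, at 2.08 against 8.10, and the receptors Plxna1, at 9.24 against 39.0, and Nrp2, at 15.4 against 44.2, were among them. The count log2 ratio of Plxna1 was 0.96. Actin cytoskeleton genes gave 4 of 29 higher and 1 lower, around a median of 0.25 that was -0.11 in TMM-scaled counts. Their share higher, 13.8%, lay below the 16.8% of all compared genes. The focal adhesion gene Vcl was at 29.7 and 9.46 FPKM in normal culture and at 17.7 and 81.7 under OGD, 4.63-fold higher [4.43 to 4.84], and the actin-binding gene Cald1 4.91-fold higher [4.75 to 5.09]. The thymosin gene Tmsb10, which sequesters actin monomers, was at 1894 and 3103 FPKM in normal culture and at 2113 and 1007 under OGD, 2.10-fold lower [2.05 to 2.15].

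Proteasome subunits gave 0 of 32 higher and 0 lower around a median of -0.18, which lay 0.46 below that of all genes on the log2 scale. Rescaling FPKM to equal library sums raises every gene by the same factor and takes this median above 0. Ubiquitin ligases gave 10 of 31 higher and 0 lower, with a median of 0.82, including Ube3a, the Angelman syndrome ligase, at 1.19 against 6.53 FPKM, and Rnf111, a ligase of TGF-beta signalling, at 1.33 against 7.03. With the length trend removed, the median of the ligases was 0.00 and that of all genes -0.04. Deubiquitinases gave 9 of 25 higher and 0 lower, against 4 higher and 1 lower in TMM-scaled counts. Usp33 was at 4.88 and 2.27 FPKM in normal culture and at 3.57 and 24.8 under OGD, 6.94-fold higher [6.03 to 7.99], and Usp1, which acts on FANCD2 and PCNA, was 4.45-fold higher [4.01 to 4.95].

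Cell cycle lists lay near or below the median gene. DNA replication genes gave 6 of 42 higher and 0 lower, with a median of 0.15 that was -0.16 in TMM-scaled counts, led by Ccne2 (cyclin E2) at 2.13 against 13.5 FPKM. On counts 1 of the 42 was at least 2-fold higher. Mitosis genes gave 8 of 39 higher and 0 lower, with a median of 0.22 that was -0.06 in TMM-scaled counts. The share higher was 14.3% for DNA replication and 20.5% for mitosis, against 16.8% of all compared genes. The condensin genes Smc2 and Smc4 were 4.91-fold [4.44 to 5.45] and 3.51-fold [3.10 to 4.00] higher. Among p53 targets and CDK inhibitors, 3 of 23 were higher, 13.0%, and 1 lower, around a median of 0.35. In TMM-scaled counts 3 were higher and 2 lower, around a median of -0.07. The higher ones were Cdkn1b, at 5.45 against 18.2 FPKM, and Trp53inp1 and Eda2r, at 1.25 and 1.16 on the log2 ratio scale. Btg2 and Cdkn1a stood at 0.97 and 0.86. Gadd45g was at 159 against 77.1 FPKM, 2.06-fold lower [1.94 to 2.19]. The proapoptotic gene Bax was at 578 against 324, 1.78-fold lower [1.72 to 1.84]. BCL2 family genes gave 1 of 15 higher, Mcl1 at 2.19-fold [2.09 to 2.30], and 0 lower, against 0 higher and 2 lower in TMM-scaled counts.

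**Figure D3:**
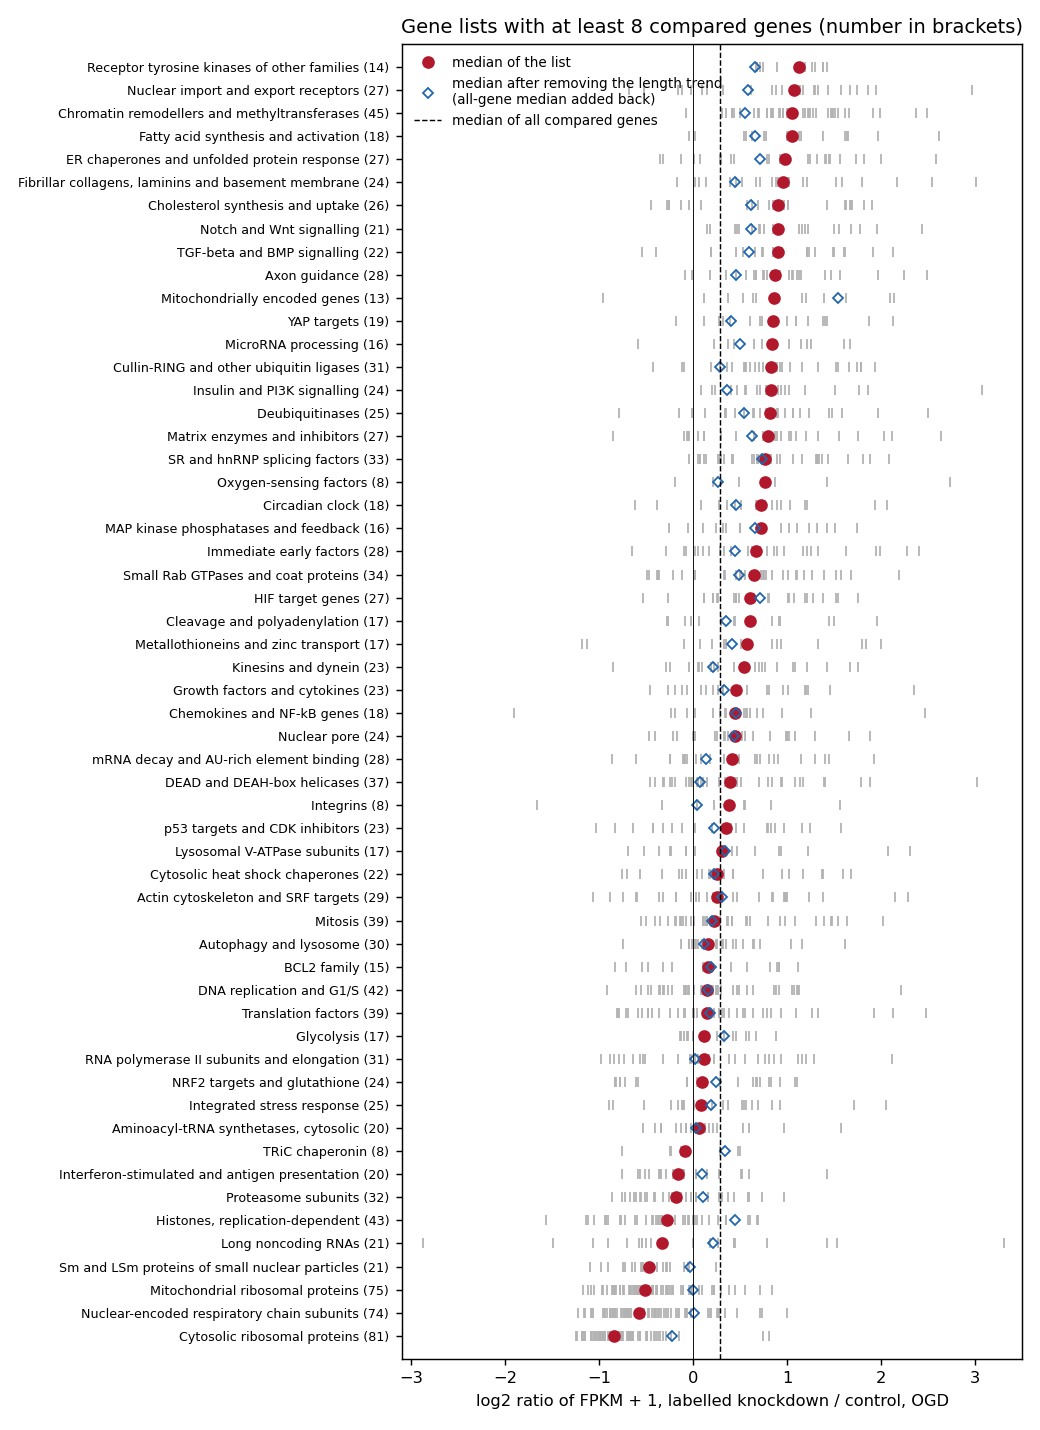
Gene lists with at least 8 compared members, ordered by median. Grey ticks are members, red points list medians, open blue diamonds medians after the length trend was removed (shifted to the same baseline), and the dashed line the all-gene median of 0.28, all as log2 ratio of FPKM + 1; receptor tyrosine kinases lead at 1.13 and cytosolic ribosomal proteins are last at -0.84.

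Ribosomal protein genes held the lowest list median. Cytosolic ribosomal protein genes had 0 of 81 higher and 16 lower, with a median of -0.84, and 54 lower in TMM-scaled counts. The median was -0.50 with the length trend removed and -0.34 with the length and GC trends removed. Rplp2, of the ribosomal stalk, was at 3473 and 5813 FPKM in normal culture and at 4157 and 1751 under OGD, 2.37-fold lower [2.33 to 2.42]. Rpl35, on the large subunit, was at 1991, 4325, 2890 and 1268 FPKM in the same order, 2.28-fold lower under OGD [2.24 to 2.32], and Rps15, on the small subunit, was 2.24-fold lower [2.20 to 2.27]. Of the 4 libraries, Rplp2 and Rpl35 were highest in the labelled knockdown library in normal culture and lowest in that under OGD. Exceptions were Rpl22l1 and Rpl39, named after their values were seen, at 0.80 and 0.74 on the log2 ratio scale. Reads of ribosomal protein genes can also be assigned to their many processed pseudogenes, so their levels are uncertain to that extent.

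Messages of ribosomal proteins begin with a run of pyrimidines, the TOP tract, through which their translation is controlled by mTOR. A C followed by 4 pyrimidines at the RefSeq start was found in 13 of 60 matched ribosomal protein genes and in 2.38% of the 8516 matched compared genes. It was found in 7 of 89 matched lower genes, 7.87%, and in 2.24% of the higher ones. The lower genes include ribosomal protein genes, and the share among the other lower genes was not computed. The start windows of the ribosomal protein genes that were lowest by interval are shown from 15 bases before the annotated start to 15 from it, with the pyrimidine run at the start in capitals.
Rplp2, chr7:141447636-141447665, plus strand: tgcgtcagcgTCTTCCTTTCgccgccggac
Rpl35, chr2:39005117-39005146, minus strand: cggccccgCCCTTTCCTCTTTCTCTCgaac
Rpl37a, chr1:72711245-72711274, plus strand: ttccgctcgccggTCTaaaaccgcgcatgc
Rps15, chr10:80292416-80292445, plus strand: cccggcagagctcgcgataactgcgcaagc
Rpl38, chr11:114668565-114668594, plus strand: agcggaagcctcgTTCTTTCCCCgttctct
Of these 5, Rplp2, Rpl35 and Rpl38 have the tract at the annotated start, and the start used in these cells was not measured.

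Mitochondrial ribosomal proteins gave 0 of 75 higher and 4 lower, with a median of -0.51, and 17 were lower in TMM-scaled counts. The median was -0.28 with the length trend removed and -0.20 with the length and GC trends removed. Among the lower ones were Mrpl52, 2.27-fold lower [2.13 to 2.41], and Mrps21, 2.18-fold lower [2.03 to 2.34]. Of 39 translation factors 6 were higher and 0 lower, against 4 higher and 2 lower in TMM-scaled counts. The share higher, 15.4%, lay near the 16.8% of all compared genes. Their median was 0.15, below that of all genes but above those of the ribosomal lists, and -0.21 in TMM-scaled counts. The genes that follow were among the 6 higher ones. Eif4g2, which encodes a scaffold for initiation independent of the cap-binding protein eIF4E, was at 62.6 and 49.7 FPKM in normal culture and at 85.2 and 477 under OGD, 5.59-fold higher [5.41 to 5.78]. The release factor gene Gspt1 was at 22.7, 23.3, 10.7 and 50.0 FPKM in the same order, 4.68-fold higher under OGD [4.25 to 5.15]. Eif2s3x, a subunit of the initiation factor eIF2, was 3.93-fold higher [3.71 to 4.17]. The effective length of Eif4g2 was 1928 bases in the control library under OGD and 1487 in the labelled knockdown library, and its count log2 ratio was 1.84.

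Respiratory chain subunits are encoded by the nuclear and the mitochondrial genome. Of 74 nuclear-encoded subunits 0 were higher and 6 lower, with a median of -0.58, and 23 were lower in TMM-scaled counts. The median was -0.27 with the length trend removed. With the length and GC trends removed it was -0.07, and that of all genes was -0.01. Examples were Atp5e at 717 against 307 FPKM, 2.34-fold lower [2.21 to 2.47], and Uqcrq, 2.24-fold lower [2.16 to 2.32]. Of the 13 mitochondrially encoded genes 6 were higher and 0 lower, with a median of 0.86, against 4 higher and 1 lower in TMM-scaled counts. mt-Co1 was at 1274 and 1144 FPKM in normal culture and at 397 and 1742 under OGD, 4.38-fold higher [4.30 to 4.46], and mt-Cytb was at 519 against 1189 under OGD. The lowest of the 13 was mt-Nd6, named after its value was seen, at 346 against 177 FPKM; it is the only protein gene on the light strand. Nuclear copies of mitochondrial genes and overlaps between neighbours make the assignment of these reads uncertain.

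Of 21 long noncoding transcripts compared, 3 were higher and 3 lower, around a median of -0.33. Both shares were 14.3%, against 16.8% higher and 2.34% lower among all compared genes. The transcript 2900097C17Rik was at 8.71 and 2.54 FPKM in normal culture and at 2.98 and 38.3 under OGD, 12.9-fold higher [10.1 to 16.6]. Tug1 was at 0.81, 1.21, 1.81 and 7.11 FPKM in the same order, 3.93-fold higher [3.37 to 4.57]. Snhg3, a host of small nucleolar RNAs, was 2.83-fold higher [2.17 to 3.73] and Snhg20 2.14-fold lower [1.90 to 2.4]. Snhg9 was listed at 0 in the labelled knockdown library on 2 counts in the control library, and no fold is given. Replication-dependent histones gave 0 of 43 higher and 4 lower, the 4 being copies of histone H4 with 23 to 42 counts in the control library. In TMM-scaled counts 12 were lower, while with the length trend removed the list median lay above that of all genes.

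Transcript length moved with the ratio over the whole table. Spearman correlation between effective length and the log2 ratio was 0.57 across genes, which are not independent replicates, and 0.56 when counts were used in place of FPKM. In the shortest decile of genes, below 484 bases, the median was -0.53, with 116 of 1216 higher and 204 lower. In the longest decile, of at least 4248 bases, it was 0.85, with 481 of 1216 higher and 0 lower. In normal culture, between other libraries, the trend ran the other way, from a median of 0.36 in the shortest to -0.47 in the longest decile.

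Counts of the libraries themselves moved likewise. The longest decile of compared genes took 4.96% of the counts of all genes in the control and 3.14% in the labelled knockdown library in normal culture, and 4.9% and 8.98% under OGD. The shortest decile took 9.73%, 15.96%, 12.8% and 7.52% in the same order. The OGD control thus lay between the normal libraries, and the labelled knockdown library under OGD lay outside the range of the other 3 at both ends. No measure of RNA quality was analysed here, and its part in the length trend was not tested.

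**Figure D4:**
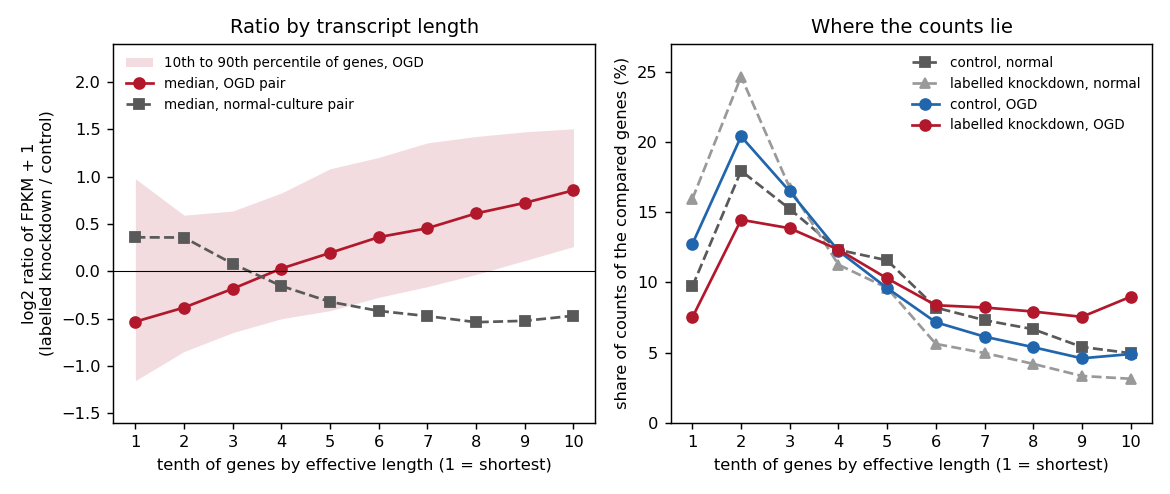
Left, median log2 ratio of FPKM + 1 by decile of effective length for the OGD pair (red, with the 10th to 90th percentile of genes shaded) and the normal-culture pair (grey). Right, share of each library's counts, over all genes, that fell on the compared genes of each decile. The OGD medians go from -0.53 to 0.85, and the labelled knockdown library under OGD has the largest share in the longest decile.

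Coding and untranslated lengths both carried this relation. Among 10415 protein-coding genes with an annotated transcript, the correlation of the ratio was 0.50 with the length of the 3′ untranslated region (UTR), 0.42 with that of the coding sequence, 0.19 with that of the 5′ UTR and -0.45 with GC content. The 1815 higher genes in this set had a median 3′ UTR of 1834 bases and 45.9% GC. Its 111 lower genes had 154 bases and 54.6%, and all 10415 genes 918 bases and 50.8%. With both lengths cut into quintiles, the median went from -0.59 for genes short in both to 0.94 for genes long in both. At the shortest coding length it still went from -0.59 to 0.41 with 3′ UTR length, and at the shortest 3′ UTR from -0.59 to 0.28 with coding length. A similar grid of GC content and transcript length went from -0.51, for short genes rich in GC, to 1.01, for long genes poor in it.

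**Figure D5:**
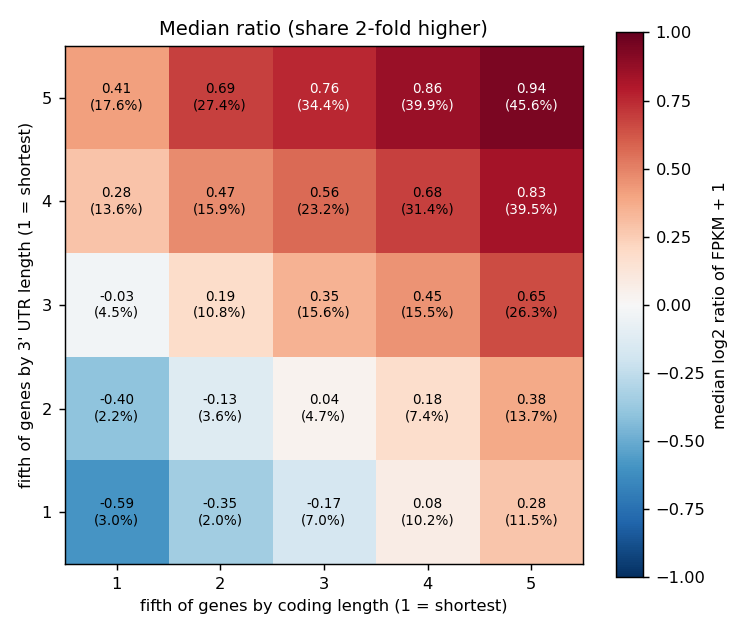
Median log2 ratio of FPKM + 1, labelled knockdown over control under OGD, by quintile of coding length (x axis) and quintile of 3′ UTR length (y axis) for 10415 genes, with the share of genes at least 2-fold higher in brackets. The median goes from -0.59 at the lower left to 0.94 at the upper right.

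AU-rich elements in 3′ UTRs mark unstable messages of early response and inflammatory genes. The letters TATTTAT, searched on the sense strand, were present in the 3′ UTR of 26.9% of the 10415 genes, 46.8% of the higher genes and 7.21% of the lower ones. Within this set these were 849 of 1815 higher and 8 of 111 lower genes. The median ratio was 0.20 for genes with no copy, 0.62 with 1, 0.77 with 2 and 0.81 with 3 or more. Longer 3′ UTRs hold more copies by length alone: among genes with a 3′ UTR of at least 1000 and under 2000 bases the medians were 0.48, 0.65, 0.77 and 0.68. GC content was not held in that comparison, and its part was not tested. The densest 30-base window is shown for 5 of the higher genes, since these hold several copies each, with the letters in capitals.
Ptgs2, chr1:150105786-150105815, plus strand: tctactgaccaTATTTATTTATTTATgtga
Hif1a, chr12:73946005-73946034, plus strand: atgcaccttttTATTTATTTATttttggtg
Ddx3x, chrX:13293304-13293333, plus strand: TATTTATtgaacattttgacaaaTATTTAT
Thbs1, chr2:118126031-118126060, plus strand: acaatgtaataTATTTATtttgttccccta
Fos, chr12:85477103-85477132, plus strand: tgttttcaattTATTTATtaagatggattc
In Ptgs2, the inducible cyclooxygenase gene, the window begins 4 bases into the 3′ UTR, which holds 6 copies; Hif1a, Ddx3x and Thbs1 hold 3 each and Fos 2. Ptgs2 was at 22.7 and 4.16 FPKM in normal culture and at 54.6 and 305 under OGD, 5.60-fold higher [5.44 to 5.75]. Fos was at 101, 10.99, 6.78 and 28.8 FPKM in the same order, so its level under OGD was higher in the labelled knockdown library yet below the control in normal culture. Some other early genes, low in normal culture, were also higher, such as Nr4a3, at 0.20 and 0.20 FPKM in normal culture and at 3.08 and 15.2 under OGD, and Egr3, at 0.60, 0.14, 1.43 and 11.8. Of 28 immediate early factors compared, 9 were higher and 0 lower, and 8 were higher in TMM-scaled counts. Their median was 0.67, or 0.17 with the length trend removed, and the lowest member stood at -0.65. Zfp36l1 and Zfp36l2, whose proteins bind such elements, were higher as given above.

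Subunits of one complex parted by length in several cases, which were picked after their values were seen. The clathrin heavy chain gene Cltc, with an effective length of 3352 bases, was at 35.4 against 107 FPKM, while the light chain genes Clta, of 975 bases, and Cltb, of 1273 bases, were at 437 against 316 and 80.3 against 56.7. The proton pump subunit Atp6v1a, of 3411 bases, was at 14.4 against 63.6 FPKM and Atp6v1f, of 476 bases, at 334 against 206. The dynein heavy chain Dync1h1, of 4732 bases, was at 52.4 against 87.5 and the dynein light chain Dynlrb1, of 471 bases, at 515 against 283. In these 3 sets the longer message was at a higher level in the labelled knockdown library and the shorter ones at a lower level. Against this, Atp6ap2, an accessory subunit of the same pump with 1618 bases, was at 11.02 against 58.4 FPKM, 5.30-fold higher [4.80 to 5.85].

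Genes that stood apart from others of their length were picked from the values after a smooth trend on effective length was removed, among genes with at least 500 counts. With the trend removed, 851 genes (7%) stood 2-fold or more above and 256 (2.11%) below, and 722 of the 2048 higher and 95 of the 285 lower genes kept their place. Nptn, which encodes the synaptic adhesion protein neuroplastin, was at 131 and 48.7 FPKM in normal culture and at 45.9 and 199 under OGD, 4.34-fold higher [4.04 to 4.67], with an effective length of 761 bases and a value of 2.35 on the log2 scale after removal. Cpne1, a calcium-dependent phospholipid-binding protein gene, was at 32.7, 11.4, 5.78 and 40.9 FPKM and at 2.43 after removal. Slc25a30, a mitochondrial carrier gene, was at 36.3, 4.39, 2.00 and 16.5 FPKM and at 2.36 after removal. For all 3 the labelled knockdown library was the higher one under OGD and the lower one in normal culture.

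Other genes high for their length included Azin1, the antizyme inhibitor that raises polyamine synthesis, 6.63-fold higher [6.19 to 7.10], Palld, an actin-bundling protein gene, 7.43-fold higher [6.67 to 8.31], and Bdkrb2, the bradykinin B2 receptor gene, 5.89-fold higher [4.99 to 6.98]. The transcription factor genes Sp3 and Tcf12 were 6.74-fold [5.95 to 7.66] and 7.08-fold [6.48 to 7.75] higher. Effective lengths in the control and labelled knockdown libraries were 3402 and 2484 bases for Tcf12 and 2796 and 2278 for Azin1. The TMM-scaled count log2 ratios of these genes were 2.10 and 2.16, smaller than their FPKM ratios. Low for their length were Capn12, a calpain gene, 2.79-fold lower [2.41 to 3.24], Rpgrip1, a photoreceptor ciliary gene, 2.49-fold lower [2.26 to 2.75], and Wdr89, 2.61-fold lower [2.29 to 3.00]. Rpgrip1 was at 1.65 and 2.38 FPKM in normal culture and at 21.9 and 8.80 under OGD, so its level was high under OGD and less so in the labelled knockdown library. Ndufa11, a complex I subunit gene with 2460 bases, was 1.98-fold lower [1.88 to 2.09] and did not reach 2-fold. It stood at -1.48 on the log2 scale after removal.

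Some ratios rested on few control counts or on effective lengths. The genes ranked highest by the lower bound of their count ratio were the zinc finger gene Zfp445, on 8 against 264 counts, Lmbrd2, on 5 against 169, and Atp7a, the copper transporter gene, on 24 against 434. Their FPKM folds were 37.3 [19.5 to 91.2], 39.6 [16.8 to 124] and 24 [16 to 38.1]. All 3 were below 1 FPKM in the other 3 libraries. Of all compared genes, Slc25a22, a mitochondrial glutamate carrier gene, was the single one past 2-fold in FPKM, at 6.63 against 22.01, with a TMM-scaled count ratio of the opposite sign, on 389 against 315 counts. Cd59b was listed at 3.09 against 0.18 FPKM on 22 against 1 counts, and its close copy Cd59a makes that assignment uncertain. Gstp2 was 2.37-fold lower [2.21 to 2.54], with the same limit from Gstp1.

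Genes that took the largest share of counts moved in opposite ways. The 10 genes with the largest rise in scaled counts (CPM), among them mt-Co1, Hspa5, Ptgs2, Slc38a2, Thbs1, Myh9 and Fn1, together took 0.533% of counts in the control and 1.58% in the labelled knockdown library. The 10 with the largest fall, among them Mt2, Ftl1, Mt1, Rpsa, Lgals1, Hmox1 and Fth1, took 7.17% and 4.33%. Both ferritin genes were in the second group: Ftl1 was at 9030 and 18481 FPKM in normal culture and at 17887 and 10068 under OGD, 1.78-fold lower [1.77 to 1.79], and Fth1 was 1.65-fold lower [1.64 to 1.67].

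The authors' deposited table of this pair lists 219 genes, 88 higher and 131 lower in the labelled knockdown library, all with a p-value below 0.05 in the authors' deposited table. Of the 88, 88 were at least 2-fold higher in FPKM, and of the 131, 125 were at least 2-fold lower. Every listed gene had an absolute log2 fold change of at least 1.31 on the same counts, so this overlap was largely fixed beforehand. The lower group held 64 small RNAs, predicted genes or pseudogenes and 13 ribosomal protein genes. Small RNAs, predicted genes and pseudogenes made up 9 of the higher group and 1906 of all 12156 compared genes. In the authors' deposited table a single gene, Nid1, had an adjusted p-value below 0.05, at 0.0346. That table compares a pair of libraries with 1 on each side, and the sources used here do not say how its test set the spread between cultures. The largest difference between its log2 fold changes and the TMM-scaled count ratios was 0.132, so both rest on the same counts.

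The pair of libraries in normal culture, which shares no library with the OGD pair, gave the context. Of the 2048 genes higher under OGD, 540 were at least 2-fold lower in the labelled knockdown library in normal culture, 26.4%, and 19 higher, 0.928%. Among all compared genes these shares were 13.5% and 4.38%. Of the 285 lower genes, 79 were at least 2-fold higher in normal culture, 27.7%, and 16 lower. The opposite direction was therefore more frequent among the genes past 2-fold under OGD than among all genes, and the length trend also ran in opposite directions in these pairs.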

How the data were processed

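Total RNA was fragmented to about 200 bp, marked with dUTP on a strand and amplified by 12 PCR cycles, per the labels' protocols. The submitters' processing notes name TopHat2 and mm10; neither versions nor the counting tool nor its strand setting is given in those sources, so overlapping and antisense genes may share reads. Per the file headers, each gene has a deposited FPKM, TPM and expected count beside its length and effective length. The deposited TPM values were not used. The authors' deposited comparison table gives each gene a log2 fold change with its p-value, raw and adjusted; 4 columns of values per library in the comparison tables were not used here.

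The log2 ratio of deposited FPKM + 1 was taken for genes at a mean of at least 1 FPKM. Expected counts as deposited were whole numbers; they gave TMM-scaled CPM (edgeR 4.0.16, R 4.3.3; 0.5 added) and exact conditional binomial 95% intervals (scipy 1.17.1), for counting error only, since PCR copies without molecular identifiers are not independent. Trends on log2 effective length, with or without GC content, were removed by LOWESS (statsmodels 0.14.6, fraction 0.3). Computations were tested on simulated data. Transcripts came from GENCODE M21 and promoters from RefSeq, both on GRCm38.

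Groups followed the library labels. Genes and the 66 gene lists were chosen with earlier results of these data known. Named genes were the 20 highest and 20 lowest by the interval bound nearest 0, the 10 largest rises and falls in CPM, up to 6 per list by size of ratio, and 6 whose FPKM and count ratios differed most; others are said to be named after their values were seen. Alternatives covered pseudocounts, filters, scalings, effective lengths, small RNAs and length trends. Some genes are not reported here.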

Additional observations from a re-analysis of the deposited data

Results flagged for a closer look

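For 16 of the named genes with the highest and lowest ratios or the largest shifts in counts, the labelled knockdown library was at least 2-fold away from its control in one direction under OGD and at least 2-fold away in the other direction in normal culture. The values are differences of the log2 ratios of FPKM + 1, OGD minus normal culture; each rests on 4 single libraries and the difference was not tested. Positive values were 5.06 for Ulbp1, a ligand of an activating receptor of natural killer cells, 4.66 for Ptgs2, 4.52 for Thbs1, 4.42 for Cyb5d1, 4.38 for Irs2, 4.34 for Gpam, 4.31 for the nucleoporin gene Nupl1, 4.07 for the predicted gene Gm26809, 3.63 for Pdpr, 3.09 for Hspa5 and 2.48 for Myh9. Negative values were -2.82 for Mt2, -2.63 for Rpl38, -2.49 for Rpp21, -2.34 for Mt1 and -2.31 for Rpl35. Effective length moved with the ratio in opposite directions in these pairs, and its part in these differences was not tested.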

How the results depend on the processing

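No paired analysis was possible because each group held 1 library, and for the same reason no replicate could be left out. At thresholds of 1.5-fold and 4-fold the counts of higher genes were 4159 and 204 and of lower genes 1340 and 32. Counts of higher and lower genes were 3208 and 106 with FPKM rescaled to equal sums, 1381 and 696 with upper-quartile scaling, 1174 and 941 with median-ratio scaling, 2375 and 440 with CPM of the library total, 1545 and 1070 with TMM, 369 and 157 after removal of length and GC trends, and 851 and 256 after removal of the length trend alone, which was chosen after seeing the data. A pseudocount of 0.1 gave 459 lower genes, and leaving out small RNAs, predicted genes and pseudogenes gave 113. Higher genes made up 87.8% of those past 2-fold in the main setting, 96.8% with equal sums, 66.5% with the upper quartile, 55.5% with median ratios, 59.1% with TMM, 70.2% after removal of length and GC and 76.9% after removal of length. The all-gene median moved from 0.28 to 0.54 with equal sums and to 0.08, -0.00 and -0.01 with the upper quartile, median ratios and TMM. Relative to the all-gene median, the medians of integrins, p53 targets and V-ATPase subunits, which lay near it, crossed it with CPM, TMM or 1 effective length a gene, and V-ATPase subunits and heat shock chaperones did so with median ratios and equal sums respectively. Crossings under other choices included DNA replication with no filter on low values (0.080), zinc handling (-0.0020), ubiquitin ligases (-0.057) and histones (0.57) after removal of length and GC, and histones (0.20) after removal of length. Slc25a22 changed sign with CPM of the library total (-0.065), with TMM (-0.33) and with 1 effective length a gene (-0.059), as its effective length differed between the libraries. Nup155 (-0.085), Clock (-0.070) and Cnot6 (-0.18) crossed after removal of length and GC. The cause of the other changes was not tested. Counting error was small beside these shifts for well-counted genes and limits those with few counts.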
